A study of Mus musculus with 8 samples.

Results

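The translation initiation factors are the eukaryotic initiation factor (eIF) genes of the families Eif1 to Eif6. They were measured as RNA in LSK cells of mouse bone marrow, the lineage-negative fraction carrying Sca-1 and Kit that holds blood stem cells and early progenitors. Members were the genes whose symbol begins with Eif1 to Eif6. The Eif2ak kinases, Eif2s3x and the Y-linked Eif2s3y were left out. Of 41 such genes with a probe set of their own on the array, 40 were measured, out of 10720 genes in all. Eif4a3, a helicase of the exon junction complex, was listed at 0 on its single probe set. Eif1, Eif2s1, Eif3g, Eif3j1, Eif4g1 and Eif4ebp3 were not analysed here.

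The study compared 4 arrays of normal mice, labelled WT and called control, with 4 arrays of mice in which Msi2 was conditionally knocked out (KO). The gene codes for Musashi-2, which binds RNA. The promoter that drives the recombinase, the time since deletion, the strain and the age of the mice are not given in the sources used here. Values are log2 signals, so a difference of 1 is a doubling.

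Initiation is the step at which a ribosome is loaded on an mRNA and finds the start codon. eIF2 carries the initiator tRNA, and eIF2B recharges eIF2 with GTP. eIF3 is a large scaffold on the small ribosomal subunit, and the eIF4 factors bind and unwind the capped end of the mRNA. In blood stem cells protein synthesis is known to be kept low, in part by proteins that hold the cap-binding factor eIF4E inactive.

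The arrays had medians of 7.71 to 7.81 over the genes, and correlations between arrays ran from 0.932 to 0.983. Msi2 was at 11.40 to 11.65 in controls and at 11.36, 11.20, 8.73 and 10.38 on Msi2 KO 1 to Msi2 KO 4. Every KO array lay below every control, but KO 1 only just, and the fall was uneven. The difference of Msi2 was -1.12 ± 0.50 (SE), and -0.55 without KO 3. Its adjusted p in limma was 0.442, so the deleted gene itself did not pass the threshold of 0.05. These values are of the brightest probe set of Msi2, and other measures of its loss were not tested. KO 3 stood apart on the first principal component, at 50.5 against -26.7 to 11.0 on the other arrays (32.4% of the variance). Its actin control read 12.56 at the 3′ end and 12.27 at the 5′ end, where the 5′ probe set was at 12.59 to 12.69 on the others. Its Gapdh control did not stand apart, at 12.82 at the 3′ end (12.79 to 12.99 on the others) and 11.12 at the 5′ end (11.11 to 11.49). Xist was low (4.79 to 5.55) on control 1, KO 1 and KO 2 and high (11.92 to 12.51) on the other 5 arrays, and Eif2s3y ran the opposite way. Of the gate markers, Kit was at 8.39 to 9.19 and Ly6a, which encodes Sca-1, was not analysed here. Of 10 lineage markers that the gate removes, Cd3e, Cd4, Cd8a, Ms4a1, Cd79a and Itgam were listed at 0 and Adgre1 was near background at 3.32 to 4.34.

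No translation initiation factor differed between Msi2 KO and control LSK cells beyond the threshold. Of the 40 factors, 0 passed an adjusted p of 0.05 in limma across all genes (smallest adjusted p 0.390), as 0% of the 10720 genes did. At an unadjusted p under 0.05 in limma there were 4 members (10%), all of them higher in KO, against 11.4% of all genes in either direction and 5.74% in the higher direction. These were Eif4enif1, Eif4ebp1, Eif3l and Eif2b4. The share is near that of all genes and is no result about the factors. Lower members at that p numbered 0, against 5.66% of all genes. For 2 members (5%), Eif3f and Eif5a, every KO array was outside the control range, against 7.11% of all genes. Both lay above it, against 3.63% of all genes, and 0 lay below it, against 3.48%. The count was 8 without KO 1 (13.1% of all genes), 4 without control 1 (11.6%) and 15 over the 5 arrays with high Xist (33.3%). In these bulk samples fewer cells of a type and less RNA per cell cannot be told apart.

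The factors had narrow error. The median standard deviation within groups was 0.20 over the members and 0.28 over all genes. The 95% confidence interval of the difference lay inside a 1.5-fold change either way for 28 of 40 members (70%), against 42.1% of all genes. It lay inside a 2-fold change for 37 (92.5%), against 83.5% of all genes. The 3 exceptions to the 2-fold bound were Eif2b4 (0.0039 to 1.15), Eif4ebp1 (0.064 to 1.08) and Eif5a2 (-1.15 to 0.55). For the other 37 a doubling or halving of the RNA lay outside the interval.

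**Figure D1:**
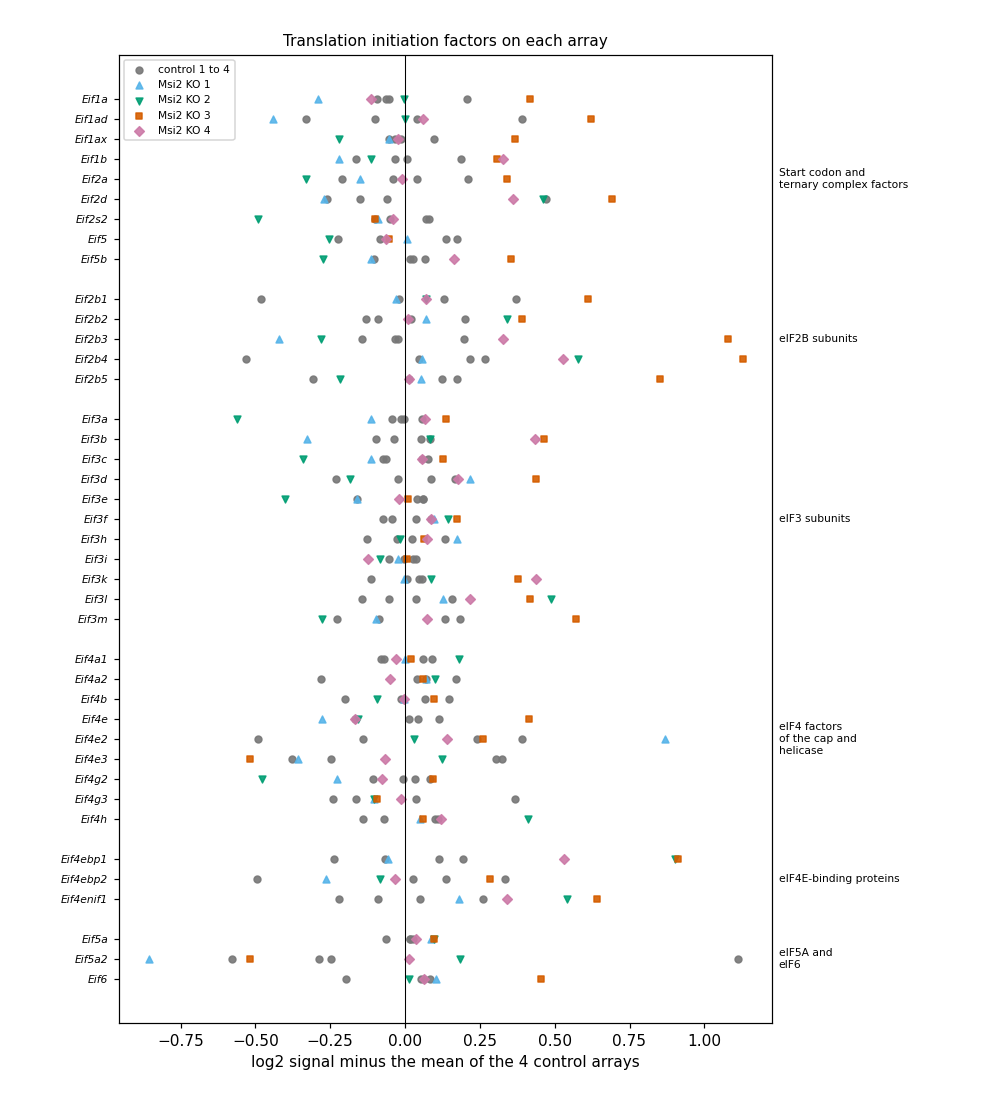
Log2 signal of each of the 40 factors on each of the 8 arrays minus the mean of the 4 control arrays (x axis), with factors grouped by role (y axis). Grey circles are controls and coloured symbols the KO arrays; KO 3 (squares) is the highest of the 8 arrays for 22 of the 40 factors.

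As a group the members leaned slightly upward, and the lean rested on 1 array. The difference was above 0 for 27 of 40 members and below 0 for 13, with a median of 0.065, while 50.4% of all genes were above 0 with a median of 0.0022. KO 3 was the highest of the 8 arrays for 22 members (55%), against 23.1% of all genes. Without KO 3 the difference was above 0 for 18 members (49.7% of all genes) and below 0 for 22, with a median of -0.040, and 0 members had an unadjusted p under 0.05 against 10.2% of all genes. Averaged over the 40 members, the deviation from the control mean was 0.30 on KO 3, 0.097 on KO 4, -0.0035 on KO 2 and -0.072 on KO 1. The controls lay between -0.050 and 0.061, so KO 3 and KO 4 were above the controls, KO 2 within them and KO 1 below them. Msi2 itself rose in the same order, at 8.73 on KO 3, 10.38 on KO 4, 11.20 on KO 2 and 11.36 on KO 1. KO 3 and KO 4 were also the KO arrays with high Xist. The part of the Msi2 level or of Xist in the lean was not tested. KO 2 was the lowest array for 10 members (25%), against 13.3% of all genes.

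Erythroid genes also had their highest level on KO 3. All 16 measured genes of a list of 20 were above the control mean in KO, with a median difference of 1.15, and 0 passed the test. At an unadjusted p under 0.05 in limma 7 were higher and 0 lower, against 5.74% and 5.66% of all genes. Without KO 3 the median of the 16 genes was 0.77. Their summed log2 level was 115.0 to 128.8 in controls and 126.4 to 151.0 in KO, with the maximum on KO 3, and Alas2 and Hba-a1 were listed at 0. Of 8 measured macrophage and monocyte genes (of 13 listed), 7 were above 0, with summed levels of 45.9 to 60.0 in controls and 54.9 to 65.2 in KO; Cd14, C1qa, C1qc, Marco and Fcgr1 were listed at 0. Of 6 measured stromal and endothelial genes (of 11 listed), 5 were below 0, with summed levels of 38.9 to 39.9 in controls and 31.3 to 37.4 in KO; Kdr, Cxcl12, Lepr, Col1a1 and Col3a1 were listed at 0. At an unadjusted p under 0.05 in limma, 3 macrophage and monocyte genes were higher and 1 lower. For the stromal and endothelial genes it was 0 higher and 4 lower. The medians of these 2 lists were 0.84 and -0.73, and 1.03 and -0.50 without KO 3. The part of these cell types in the lean of the initiation factors was not tested.

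Promoters of the members held the letters CACGTG, the E-box that MYC family proteins are known to bind, at 25.6% of starts, against 7.15% of all starts. RefSeq promoter windows (GRCm38.p6, 250 bases before to 50 after each annotated start) matched 31 of the 40 members, with 43 starts. CACGTG, which reads the same on both strands, was in 11 of the 43 windows (25.6%) and in 7.15% of all 32851 windows. For starts of protein-coding genes alone it was 7.84%. By gene it was in 9 of 31 members (29%), against 8.09% of all genes with a window and 8.91% of protein-coding genes. The 9 were Eif1b, Eif3a, Eif3f, Eif3k, Eif4a1, Eif4e, Eif4h, Eif5a and Eif5a2. The shares over all starts and all genes include genes that were not measured here, and measured genes alone were not counted. Windows of different starts of a gene can overlap and hold the same CACGTG, as 2 windows of Eif5a do. The windows below are shown because they include the 2 members whose groups did not overlap, Eif3f and Eif5a, beside factors of the scaffold, the cap and the helicase. Capitals mark CACGTG.
Eif3f: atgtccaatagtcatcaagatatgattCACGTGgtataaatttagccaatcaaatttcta
Eif3k: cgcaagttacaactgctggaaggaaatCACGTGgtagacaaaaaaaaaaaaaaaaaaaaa
Eif4e: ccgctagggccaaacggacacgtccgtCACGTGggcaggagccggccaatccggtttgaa
Eif4a1: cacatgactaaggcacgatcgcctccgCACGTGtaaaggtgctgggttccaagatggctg
Eif4h: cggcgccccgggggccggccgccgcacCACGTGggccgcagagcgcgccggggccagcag
Eif5a: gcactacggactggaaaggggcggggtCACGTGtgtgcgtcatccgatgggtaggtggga

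All 6 stretches of 60 bases lie upstream of an annotated start of the gene. The Eif3f stretch is chr7:108934320-108934379 on the plus strand, with CACGTG beginning 68 bases before the start. The Eif3k stretch is chr7:28981900-28981959 on the minus strand, 44 bases before the start. For Eif4e it is chr3:138527177-138527236 on the plus strand (64 bases before), for Eif4a1 chr11:69672580-69672639 on the minus strand (189 bases) and for Eif4h chr5:134639473-134639532 on the minus strand (96 bases). For Eif5a it is chr11:69921428-69921487 on the minus strand, 74 bases before 1 annotated start and 185 bases before another. The median difference between KO and control was 0.076 over the 9 members with CACGTG (6 above 0) and 0.065 over the 22 without it (16 above 0). Starts were also searched for a C at the annotated start followed by 4 bases that are each C or T. Such a run begins the tract that marks many mRNAs of the translation machinery. It was at 1 of the 43 starts (2.33%) and at 2.51% of all starts. Only a run at the exact annotated base was counted, so a tract at a nearby base was missed. No set of genes known to carry the tract was counted beside it, so the search cannot tell whether the members lack it. These matches are letters in a window and say nothing of binding in LSK cells.

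The 5 subunits of eIF2B, the exchange factor that restores active eIF2, all had a difference above 0, from 0.17 to 0.58, and none passed limma. Eif2b4, the delta subunit, was at 6.60, 7.18, 7.40 and 7.35 on controls 1 to 4 and at 7.19, 7.71, 8.26 and 7.66 on KO 1 to KO 4. Thus 3 of 4 KO arrays were above every control, and KO 1 lay among them. Its difference was 0.58 ± 0.25 (SE, n = 4 arrays per group), or 1.49-fold, with an adjusted p of 0.436 in limma (0.218 to 0.603 over all settings). Without KO 3 it was 0.39.

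Eif2b3, the gamma subunit of the catalytic pair, was at 7.26, 7.60, 7.37 and 7.38 in controls and at 6.98, 7.12, 8.48 and 7.73 in KO. KO 1 and KO 2 were below every control and KO 3 and KO 4 above, which gave a mean difference of 0.17 ± 0.30 (SE). Eif2b5, the epsilon subunit that carries the catalytic site, was at 9.06, 9.49, 9.54 and 9.38 in controls and at 9.42, 9.15, 10.22 and 9.38 in KO, so only KO 3 was above the controls. The regulatory subunits Eif2b1 (alpha) and Eif2b2 (beta) differed by 0.18 ± 0.21 and 0.20 ± 0.14 (SE). For all 5 subunits KO 3 was the highest of the 8 arrays. The mean deviation of the 5 was 0.81 on KO 3, against -0.055 to 0.19 on the other KO arrays and -0.17 to 0.19 in controls. Without KO 3 the differences were above 0 for 3 subunits and below 0 for Eif2b3 (-0.13) and Eif2b5 (-0.050), with a median of 0.035. The erythroid list had its highest level on the same array, as given above.

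**Figure D2:**
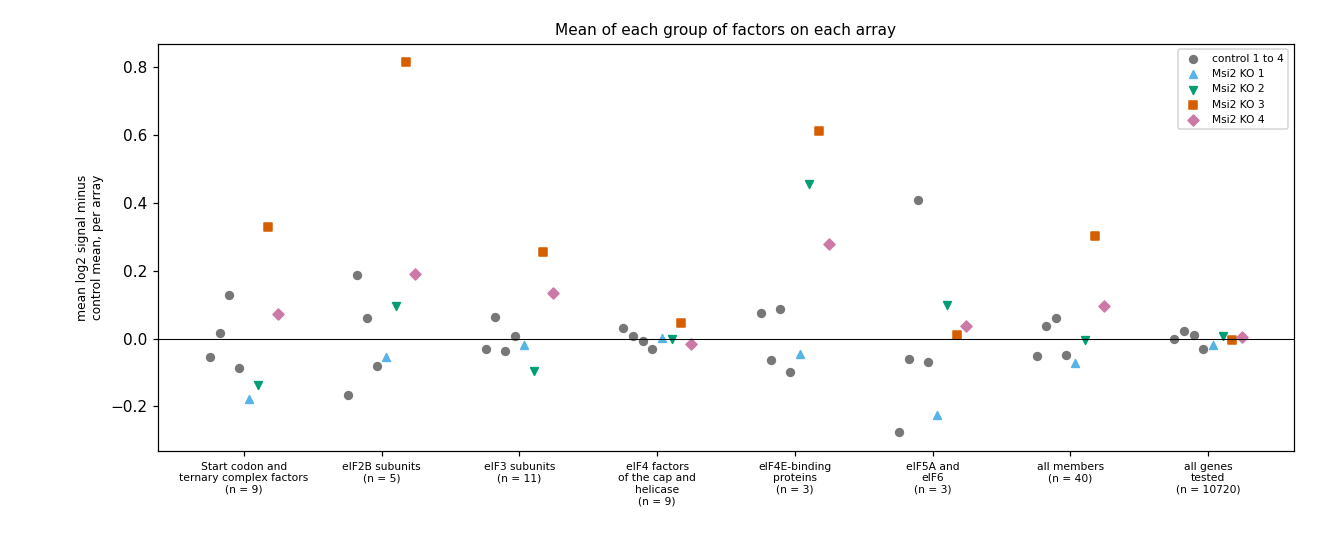
Mean log2 signal of each group of factors on each array minus the mean of the 4 control arrays (y axis), for 6 roles, all 40 members and all 10720 genes tested (x axis). KO 3 (squares) reads 0.81 for the eIF2B subunits and 0.044 for the eIF4 factors of the cap and helicase, and all genes together lie between -0.030 and 0.022.

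Among the 9 factors of the ternary complex and start codon, 6 were above 0 and 3 below, and no limma p was under 0.05. Eif2s2, the beta subunit of eIF2, was at 11.81, 11.98, 11.99 and 11.86 in controls and at 11.82, 11.42, 11.81 and 11.87 in KO. The mean difference of -0.18 ± 0.14 (SE) came with 1 low array, KO 2, and the other KO arrays at the lower edge of the controls. Eif2d, which can deliver tRNA to the ribosome without GTP, was at 8.46, 8.55, 9.08 and 8.35 in controls and at 8.34, 9.07, 9.30 and 8.97 in KO. The difference of 0.31 ± 0.24 (SE) had groups that overlapped, with control 3 at the level of KO 2.

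Eif2a, an initiator tRNA binder distinct from eIF2 alpha, differed by -0.040, and Eif5, the GTPase activator of eIF2, by -0.092. Eif5b, the GTPase that joins the ribosomal subunits, differed by 0.032. The start codon factors of the eIF1 and eIF1A type, Eif1b (0.076), Eif1a (0.0031) and the X-linked Eif1ax (0.019), and Eif1ad, which carries an eIF1A domain, at 0.059, were all near 0. Their intervals were -0.30 to 0.45, -0.38 to 0.39, -0.32 to 0.36 and -0.48 to 0.60, in the same order. Without KO 3 only Eif2d was above 0 (0.19) and the other 8 were below, with a median of -0.11. Eif1ax was at 11.25, 11.21 and 11.04 on the arrays with low Xist (control 1, KO 1 and KO 2) and at 11.21 to 11.63 on those with high Xist, so its levels overlapped between them.

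The 11 measured subunits of eIF3 stayed within small differences, from -0.14 to 0.31, with 7 above 0 and 4 below. The interval lay inside a 1.5-fold change for 10 of the 11. Eif3l, a peripheral subunit, was the exception, at 10.38, 10.26, 10.08 and 10.17 in controls and at 10.35, 10.71, 10.64 and 10.44 in KO. KO 2, KO 3 and KO 4 were above every control and KO 1 just below the highest. The difference was 0.31 ± 0.14 (SE), or 1.24-fold, with an adjusted p of 0.432 in limma (0.332 to 0.649 over all settings), and it was 0.28 without KO 3. Its partner Eif3k differed by 0.23 ± 0.14 (SE), with KO 2 (11.22), KO 3 (11.51) and KO 4 (11.57) above controls of 11.02 to 11.19.

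Eif3f, a subunit of the MPN fold, was at 11.65, 11.81, 11.68 and 11.76 in controls and at 11.82, 11.87, 11.90 and 11.81 in KO. The groups did not overlap, and the exact permutation p, two-sided, was 0.0286, the smallest that 4 arrays against 4 can give. The gap is small, since the lowest KO and the highest control array round to the same value. The difference was 0.13 with an interval of -0.13 to 0.38, and its adjusted p in limma was 0.715. Eif3h, the other subunit of that fold, differed by 0.071.

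On their brightest probe sets Eif3a, Eif3c and Eif3e, subunits of the eIF3 core, had their lowest value on KO 2, as had Eif3m (9.81). KO 2 was not the lowest array on the other probe sets of Eif3a and Eif3c, nor on the dimmest of Eif3e. Eif3a was at 12.54, 12.53, 12.60 and 12.50 in controls and at 12.43, 11.98, 12.68 and 12.61 in KO. KO 1 and KO 2 were below and KO 3 and KO 4 above the controls, so the mean difference of -0.12 described none of the arrays well. Eif3c had the same split for KO 1 and KO 2 (11.73 and 11.50, with controls of 11.77 to 11.92), and its difference was -0.064. Eif3e was lowest on KO 2 as well (11.85, other arrays 12.09 to 12.31), with a difference of -0.14. Without KO 2 the differences of Eif3a, Eif3c and Eif3e were 0.029, 0.028 and -0.056. Eif3b, another large core subunit, was not low there, at 8.92, 9.07, 8.98 and 9.10 in controls and 8.69, 9.10, 9.48 and 9.45 in KO. KO 1 was its lowest array, and the difference was 0.16. The remaining subunits differed by 0.16 (Eif3d), 0.071 (Eif3m) and -0.055 (Eif3i). Over the 11 subunits the mean deviation was 0.25 on KO 3, 0.13 on KO 4, -0.019 on KO 1 and -0.095 on KO 2, with controls at -0.037 to 0.062.

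**Figure D3:**
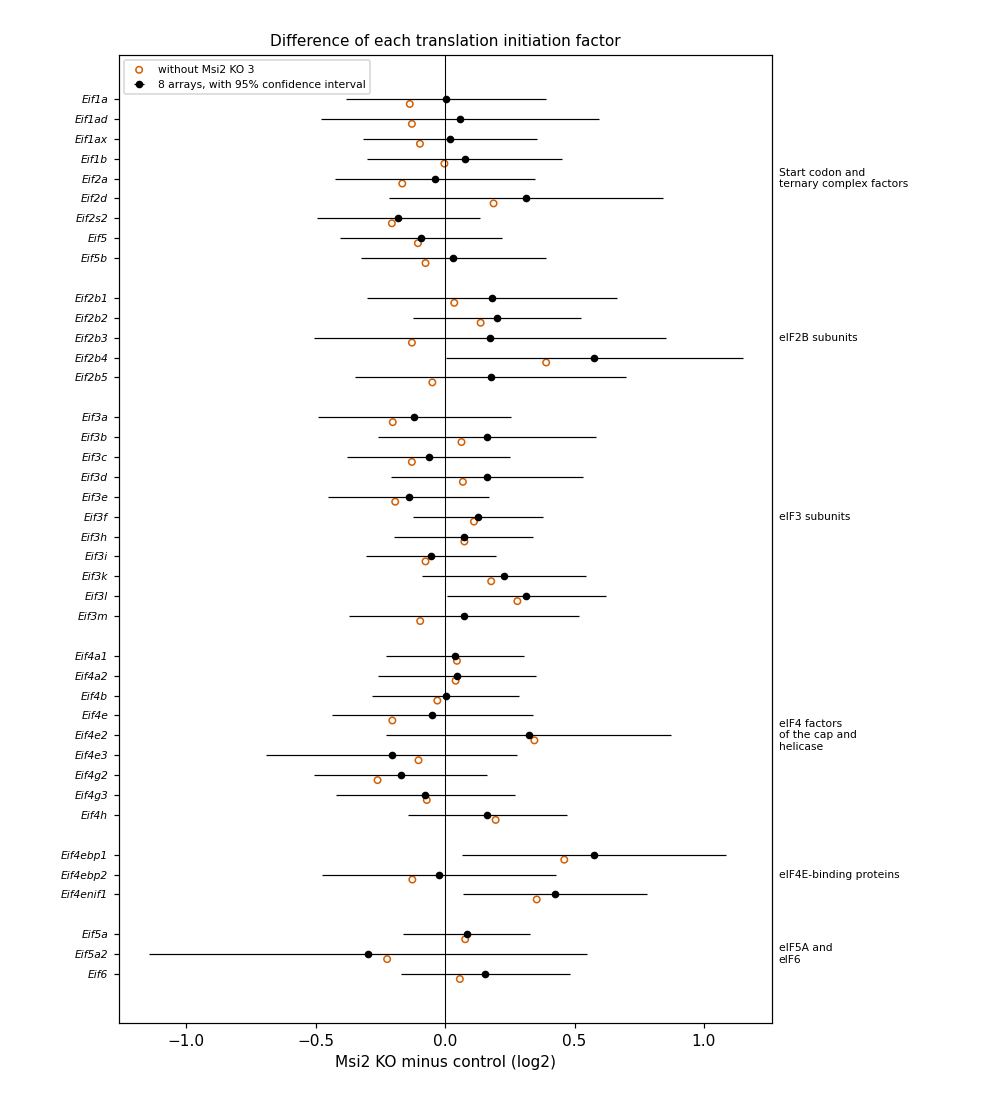
Difference of each factor, Msi2 KO minus control on the log2 scale (x axis), with its 95% confidence interval from limma over 8 arrays (black), and the difference without KO 3 (open circles). The intervals exclude 0 for Eif2b4, Eif3l, Eif4ebp1 and Eif4enif1 before adjustment, and 28 of 40 lie inside a 1.5-fold change.

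The 9 eIF4 factors of the cap and helicase had group means near 0, with mean deviations of -0.016 to 0.044 on the KO arrays and -0.030 to 0.031 in controls. Single members went both ways, from -0.21 (Eif4e3) to 0.32 (Eif4e2), and cancelled in these means. The helicase Eif4a1 differed by 0.038 (interval -0.23 to 0.31), its paralogue Eif4a2 by 0.045 (-0.26 to 0.35) and the helicase cofactor Eif4b by 0.0016 (-0.28 to 0.29). Eif4h, the other cofactor, was at 11.21, 11.20, 11.03 and 10.96 in controls and at 11.15, 11.51, 11.16 and 11.22 in KO, a difference of 0.16 ± 0.14 (SE). Of the scaffolds, Eif4g3 differed by -0.076 and Eif4g2, a relative that lacks the cap-binding arm, by -0.17. Eif4g2 was lowest on KO 2 (10.62) and KO 1 (10.87), with controls at 10.99 to 11.18 and KO 3 at 11.19.

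The cap-binding factor Eif4e was at 9.56, 9.53, 9.63 and 9.35 in controls and at 9.24, 9.36, 9.93 and 9.35 in KO. KO 3 was above the controls and the other KO arrays lay at or below their lower edge. The difference was -0.050 with all arrays and -0.20 without KO 3. The relative Eif4e3 differed by -0.21 ± 0.22 (SE). Eif4e2, a cap-binding relative that represses translation, differed by 0.32 ± 0.24 (SE), with KO 1 highest at 11.64 and controls at 10.28 to 11.16. It was 0.14 without KO 1 and 0.16 without control 3.

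The 3 proteins that bind eIF4E gave the highest median of the 6 groups, 0.42, and 0 of 3 passed limma after adjustment. Eif4ebp1, the repressor that mTOR inactivates by phosphorylation, was at 8.51, 8.16, 8.59 and 8.33 in controls and at 8.34, 9.30, 9.31 and 8.93 in KO. KO 2, KO 3 and KO 4 were above every control, and KO 1 lay within the control range. The difference was 0.57 ± 0.23 (SE), or 1.49-fold, with an adjusted p of 0.403 in limma (0.222 to 0.577 over all settings) and an exact permutation p, two-sided, of 0.0857. It was 0.46 without KO 3. The second bright probe set of the gene differed by 0.39 ± 0.18 (SE).

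Eif4enif1, which carries eIF4E into the nucleus and to RNA granules, was at 6.84, 6.97, 7.11 and 7.32 in controls and at 7.24, 7.60, 7.70 and 7.40 in KO. Only KO 1 overlapped the controls. The difference was 0.42 ± 0.16 (SE), or 1.34-fold, with an adjusted p of 0.390 in limma (0.257 to 0.540 over all settings), and it was 0.35 without KO 3. The third binder, Eif4ebp2, differed by -0.024 on its brightest probe set, and its other 4 probe sets gave 0.18 to 0.41. On 2 of those 4 the groups did not overlap. The brighter of these was at 8.48 to 8.75 in controls and 8.83 to 9.22 in KO, and the dimmer at 6.71 to 7.12 in controls and 7.20 to 7.53 in KO. Their adjusted p in the limma fit of 20371 probe sets was 0.427 and 0.420, and the rule for the members does not use them. The brightest probe set of the gene was at 8.53 to 9.36 in controls and 8.76 to 9.31 in KO, so the groups overlapped fully there. Of the 108 probe sets of all members, 5 had every KO array above every control and 1 had every KO array below. The same share over all probe sets was not counted. Over all genes it was 3.63% above and 3.48% below.

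Of the last 3 factors, Eif5a and Eif6 were steady. Eif5a, which carries the modified amino acid hypusine and helps the ribosome through difficult stretches, was at 12.59, 12.67, 12.68 and 12.67 in controls and at 12.74, 12.75, 12.75 and 12.69 in KO. The groups did not overlap, which by itself fixes the exact permutation p, two-sided, at 0.0286, as for 7.11% of all genes. The difference was 0.083, or 1.06-fold, with an interval of -0.16 to 0.33 and an adjusted p of 0.819 in limma. Eif6, which keeps the large ribosomal subunit from joining too early, was at 10.12, 10.37, 10.40 and 10.38 in controls and at 10.42, 10.33, 10.77 and 10.38 in KO. KO 3 was high and control 1 low, and the difference was 0.16 with all arrays and 0.057 without KO 3. Eif5a2, the restricted paralogue of Eif5a, was at 3.58 to 4.62 on 7 arrays and at 5.55 on control 3. The Y-linked Eif2s3y read 3.36 to 3.62 on the arrays with high Xist. The difference of -0.30 ± 0.38 (SE) is thus of a dim probe set. A second, dimmer probe set of Eif5a2 went the other way, at 3.38 to 3.58 in controls and 3.59 to 4.41 in KO. Its groups did not overlap, and its difference was 0.50, with an adjusted p of 0.420 in the limma fit of probe sets.

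Other probe sets of the same gene often pointed elsewhere. The 40 members had 108 probe sets, none of which passed limma over 20371 probe sets, as 0.00491% of all did (1 probe set). At an unadjusted p under 0.05 there were 9 (8.33%), against 10.3% of all probe sets. Of 24 members with more than 1 probe set at a mean signal of 7 or more, 11 had differences of both signs. How often this holds over all genes was not counted, so it is no result about the factors. Among the 11, Eif4e2 was the clearest case. Its brightest probe set differed by 0.32, and the third brightest by 0.36. The second brightest went the other way, at 10.47, 10.24, 10.48 and 10.30 in controls and 9.98, 10.07, 9.80 and 10.16 in KO, with groups that did not overlap and a difference of -0.37 ± 0.14 (SE). For Eif3a the brightest probe set gave -0.12 and the other 3 gave 0.10 to 0.11. Whether the probe sets read different transcript forms was not tested. Eif3e, Eif4e, Eif4g2 and Eif4e3 were below 0 on every probe set at a mean signal of 7 or more. Eif1ad, Eif2b2, Eif2d, Eif3l, Eif4a1, Eif4b, Eif4h, Eif4ebp1 and Eif5a were above 0 on every such probe set.

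**Figure D4:**
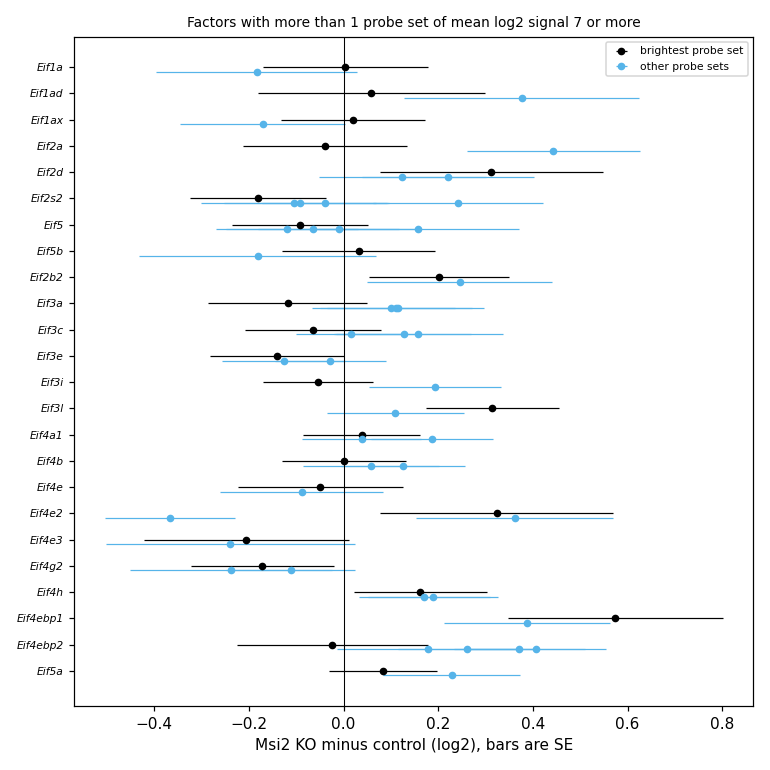
Msi2 KO minus control on the log2 scale (x axis, bars are the SE from limma) for the 24 factors with more than 1 probe set of mean log2 signal 7 or more (y axis); black is the brightest probe set and blue the others. For 11 of the 24 the probe sets lie on both sides of 0, among them Eif4e2 at 0.32 and -0.37.

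The genes that work beside the initiation factors were taken from lists. Of 20 measured initiation partners (of 21 listed), 0 passed limma in either direction, and 3 were higher and 2 lower at an unadjusted p under 0.05, where 5.74% of all genes were higher and 5.66% lower. The median was 0.017, against 0.0022 over all genes. Gcn1, which activates the eIF2 kinase Gcn2, was at 8.37, 8.27, 8.33 and 8.04 in controls and at 8.57, 9.12, 8.84 and 8.86 in KO. Its groups did not overlap, and the difference was 0.60 ± 0.15 (SE; adjusted p 0.275 in limma, 0.143 to 0.483 over all settings). Pabpc4, a poly(A)-binding protein, was at 9.36 to 9.93 in controls and 10.02 to 10.78 in KO, a difference of 0.61.

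Paip2, which displaces the poly(A)-binding protein from mRNA, was lower on every KO array (10.94 to 11.09) than in controls (11.36 to 11.72), by -0.47 ± 0.13 (SE; adjusted p 0.292 in limma, 0.208 to 0.497 over all settings). Impact, an inhibitor of the Gcn1 and Gcn2 pair, was also lower on every KO array, with a difference of -0.58 that was -0.31 without KO 3. With all probe sets of a gene averaged, the difference was -0.13 for Impact and 0.35 for Gcn1. These 4 named partners have the smallest p in their direction, and none passed after adjustment.

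Of 18 measured kinases, phosphatases and mTOR pathway genes (of 19 listed), 0 passed limma in either direction, and 3 were higher and 1 lower at an unadjusted p under 0.05 (all genes 5.74% and 5.66%). The median was 0.049. Tsc2, the brake on mTOR, was at 6.66, 6.86, 6.50 and 6.67 in controls and at 8.09, 7.31, 7.57 and 6.89 in KO, a difference of 0.79 ± 0.24 (SE; adjusted p 0.310 in limma, 0.267 to 0.510 over all settings). The eIF2 kinases Eif2ak3 and Eif2ak2 are named for a small p in each direction, so their opposite signs follow from that choice. Values of Eif2ak1 and Eif2ak4 are not given here. Eif2ak3 (PERK) differed by 0.69 with KO 4 among the controls (adjusted p 0.409 in limma). Eif2ak2 (PKR), an interferon-induced kinase, differed by -0.49 with every KO array below every control (adjusted p 0.410 in limma). Without KO 2 the difference of Eif2ak2 was -0.30. With only the arrays of high Xist it was -0.26, and that of Eif2ak3 was 0.22. Rps6, a ribosomal protein that S6 kinase modifies, differed by -0.52 ± 0.30 (SE), and by -0.34 without KO 4.

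Of 14 measured elongation and termination factors (of 15 listed), 0 passed limma in either direction, and 1 was higher and 0 lower at an unadjusted p under 0.05 (all genes 5.74% and 5.66%), which is near the share of all genes. The median was 0.045. Dohh, the enzyme of the last step of hypusine formation on eIF5A, was at 8.23 to 8.52 in controls and 8.62 to 8.95 in KO, a difference of 0.36 ± 0.13 (SE; adjusted p 0.388 in limma, 0.286 to 0.645 over all settings). The release factor Gspt1 differed by 0.22, and by 0.089 without KO 3. Eef2k, the kinase that slows elongation, differed by -0.19, and by -0.044 without KO 3. Gspt2 differed by -0.26, with -0.085 without control 1, -0.11 without control 3 and -0.60 without control 4. Without KO 3 the medians of these 3 lists were -0.026, 0.028 and -0.032.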

How the data were processed

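RNA of LSK cells from 4 control and 4 Msi2 KO mice was labelled with biotin and read on 8 Affymetrix arrays, per the labels. Log2 signals of probe sets were deposited. RMA is named in the submitters' processing notes, without a version. Of 45101 probe sets, 20664 (45.8%) were 0 on all 8 arrays, by a step that no source states, and were left out. Scale was taken as log2 from the range of 2.79 to 13.73, and no centring was seen.

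Probe sets were named from the platform annotation and updated through gene IDs to symbols of a RefSeq table of GRCm38.p6: 34958 carried 1 name, 932 several and 9211 none. For each gene the probe set of highest mean over the 8 arrays was used, which gave 10720 genes. Genes were compared with limma 3.58.1 in R 4.3.3 (lmFit, eBayes, two-sided, Benjamini-Hochberg over all genes, threshold 0.05). Every adjusted p is from limma. Exact permutation used all 70 assignments. Tested on simulated data of this comparison (10720 genes, 200 of them changed), the fit recovered 0 genes changed by 0.5 on the log2 scale, 121 changed by 1 and 187 changed by 2.

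The members and lists were chosen with earlier results of these data known. All members are named, and of each pathway list the 2 genes with the smallest p per direction. Alternatives were the probe set rule, the level filter, centring, repeated quantile normalization, array weights, the prior, Xist, a replicate block and each array left out.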

Additional observations from a re-analysis of the deposited data

Results flagged for a closer look

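Among 104 groups of 4 arrays (40 factors and 12 pathway genes in both conditions), 9 held 1 array far from the other 3, and chance alone flags about 1 in 20. In controls, control 1 was the low array for Eif3e (12.09, others 12.29 to 12.31), Eif5a (12.59, others 12.67 to 12.68) and Eif6 (10.12, others 10.37 to 10.40). Control 3 was high for Eif1a (9.57, others 9.27 to 9.31) and control 4 for Paip2 (11.72, others 11.36 to 11.42). In KO, KO 3 was high for Eif2b1 (9.23, others 8.59 to 8.69) and Eif4e (9.93, others 9.24 to 9.36). KO 2 was low for Eif2s2 (11.42, others 11.81 to 11.87), and KO 4 was high for Eif4g3 (9.58, others 9.49 to 9.50), where the whole range was small.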

How the results depend on the processing

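Of the 40 factors, 0 passed limma under any alternative run, and the smallest adjusted p was 0.218. Over all genes, 4 passed with Xist as a covariate and 0 to 1 with 1 array left out. The median difference of the factors was -0.040 to 0.091 with 1 array left out and turned below 0 without KO 3. The count of factors whose groups did not overlap was 1 with the mean of all probe sets, 1 without probe sets ending in _s_at or _x_at, 1 with quantile normalization repeated and 15 with only arrays of high Xist, where 33.3% of all genes did not overlap. With 1 array left out it was 2 to 8, with 8 without KO 1 (13.1% of all genes) and 4 without control 1 (11.6%). Replicate numbers did not pair the samples (correlations of deviations 0.137, -0.172, 0.0751 and -0.0207), and with the replicate block 0 factors passed and the median stayed at 0.065. In simulated data for this comparison 0 of 200 genes were recovered at a log2 change of 0.5 and 121 at 1. Changes of 0.5 were thus not recovered at the spread of all genes and with adjustment over all genes. The narrower spread of the factors was not simulated on its own. The differences that changed sign were small in most cases, and the cause was not tested. With Xist as a covariate the difference was 0.030 for Eif2a. With array weights the difference was -0.063 for Eif1a, -0.025 for Eif1ax, -0.037 for Eif3m, -0.026 for Eif4a2 and -0.025 for Eif4b. With arrays centred on their median the difference was -0.012 for Eif1a and -0.013 for Eif4b. With all probe sets of a gene averaged the difference was -0.090 for Eif1a, -0.22 for Eif1ax, 0.14 for Eif2a, 0.034 for Eif2s2, 0.052 for Eif3a, 0.059 for Eif3c, 0.069 for Eif3i, 0.018 for Eif4e, 0.24 for Eif4ebp2, -0.020 for Eif4h, 0.10 for Eif5a2 and -0.039 for Gspt1. With only the 5 arrays of high Xist the difference was 0.15 for Eif2a, 0.097 for Eif3a, 0.071 for Eif3c, -0.036 for Eif4a1, -0.088 for Eif4a2, 0.14 for Eif4e and 0.24 for Eif4ebp2. Without probe sets ending in _s_at or _x_at the difference was -0.043 for Eif4h and -0.23 for Gspt1. With quantile normalization repeated the difference was -0.0066 for Eif1a. With 1 array left out the difference ran from -0.14 to 0.10 for Eif1a, from -0.13 to 0.23 for Eif1ad, from -0.098 to 0.099 for Eif1ax, from -0.0075 to 0.17 for Eif1b, from -0.17 to 0.059 for Eif2a, from -0.13 to 0.37 for Eif2b3, from -0.050 to 0.31 for Eif2b5, from -0.20 to 0.029 for Eif3a, from -0.13 to 0.028 for Eif3c, from -0.097 to 0.19 for Eif3m, from -0.0075 to 0.069 for Eif4a1, from -0.049 to 0.10 for Eif4a2, from -0.067 to 0.050 for Eif4b, from -0.20 to 0.026 for Eif4e, from -0.19 to 0.088 for Eif4ebp2, from -0.16 to 0.045 for Eif4g3, from -0.49 to 0.073 for Eif5a2 and from -0.076 to 0.13 for Eif5b. Without a change of sign, it ran from 0.021 to 0.30 for Eif2b1, from 0.19 to 0.50 for Eif2d, from -0.23 to -0.079 for Eif2s2, from 0.063 to 0.33 for Eif3b, from 0.068 to 0.28 for Eif3d, from 0.14 to 0.45 for Eif4e2, from -0.33 to -0.098 for Eif4e3, from -0.26 to -0.070 for Eif4g2, from 0.079 to 0.20 for Eif4h and from 0.057 to 0.20 for Eif6. With all probe sets of a gene averaged, dim ones included, the difference was 0.32 for Eif4ebp1, 0.20 for Eif3l, 0.028 for Eif2d, 0.034 for Eif4e2 and 0.16 for Dohh.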

Other observations

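Probe sets shared by several genes were outside the rule for the members and are given as values. The probe set named for both Eif4a3 and Gm5576, was at 10.73, 10.60, 10.49 and 10.55 on controls 1 to 4 and at 10.72, 10.56, 10.95 and 10.65 on KO 1 to KO 4, so signal of Eif4a3 or Gm5576 was present although the probe set of Eif4a3 alone was listed at 0. The brightest of 3 probe sets named for Eif3j1 and Eif3j2 was at 10.02, 10.47, 10.66 and 10.62 in controls and at 10.47, 10.46, 10.90 and 10.57 in KO. The probe set named for both Eif4ebp3 and Ankhd1, was at 7.60 to 7.71 in controls and at 7.75, 8.22, 7.92 and 8.05 in KO, so the groups did not overlap. It cannot be assigned to either gene and was not part of the fit.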
